A study of Sus scrofa with 8 samples.

Results

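The subject is a set of 73 pig genes for making ribosomes, taken from a table of 25578 genes. They are the genes whose pathway annotation in the deposited table carries the KEGG entry for ribosome biogenesis in eukaryotes and not the entry for the ribosome itself. No gene carried both, so nothing was dropped for that reason. Expression was followed in pig (Sus scrofa) cells at 4 stages with 2 libraries each: pluripotent stem cells (PSC), definitive endoderm (DE, the layer that forms the gut lining and its organs), anterior foregut endoderm (AFE, the front part of the gut tube) and lung progenitor organoids (LPO) made from them. The labels name each library by its stage and a replicate number only. The question asked of the genes is how the ribosome assembly machinery changed as cells left pluripotency and moved towards lung. Of the 73 genes, 7 carry no symbol in the table and are given by their Ensembl identifier.

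Ribosomes are built in the nucleolus from a long precursor RNA transcribed by RNA polymerase I. Small nucleolar ribonucleoproteins (snoRNPs) modify this RNA, those of the box C/D class by methylation and those of the box H/ACA class by pseudouridylation. A large assembly called the small-subunit processome folds and cuts the part that becomes the small subunit, and a chain of GTPases and ATPases matures the large subunit. Both particles then leave the nucleus through the exportin XPO1 and are finished in the cytoplasm. Demand for new ribosomes is known to be high in growing and dividing cells, pluripotent cells among them.

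Each gene's level is expressed in CPM (counts per 1e6 counts, libraries scaled by TMM), library 1 first and library 2 second. Levels of different genes are set against each other only in FPKM, which takes gene length into account. A gene was called changed at an adjusted p under 0.05 in an edgeR quasi-likelihood test fitted to all 8 libraries and adjusted over 19346 tested genes, and all 73 genes were among those tested. The libraries held 36004372 to 67566269 counts, or 9001093 to 16891567 read pairs if 4 counts stand for 1 pair. At each stage, 71 to 73 of the 73 genes had levels in the 2 libraries that lay within 2-fold of each other. Nothing in the labels shows that the 2 libraries of a stage were separate cultures. The p-values therefore rest on a spread between libraries that may be technical only. With 2 libraries against 2, the smallest p of an exact permutation test is 0.333. In bulk RNA, fewer cells that express a gene and less of its RNA per cell cannot be told apart. Defining genes were checked against the stage labels. POU5F1 was at 4453 and 5156 CPM in PSC and 0 and 0.0504 CPM in LPO, SOX17 peaked in DE at 251 and 228 CPM, and NKX2-1 was at 0 in PSC and DE and reached 33.7 and 34.2 CPM in LPO. For AFE the 4 anterior foregut markers gave no clear mark of the stage. They summed to 8.28 and 6.33 CPM in PSC, 75.9 and 69.4 CPM in DE, 22.0 and 21.3 CPM in AFE, and 43.7 and 46.5 CPM in LPO, with HHEX alone at 72.6 and 65.5 CPM in DE. In AFE against DE, 2 of the 4 were higher and 1 was lower. The surfactant gene SFTPC, a mark of more mature lung epithelium, was at 0 in the other stages and at only 0.262 and 0.441 CPM in LPO. The 5 lung progenitor markers, NKX2-1 and SFTPC among them, did not mark LPO cleanly as a sum. They summed to 8.56 and 8.76 CPM in PSC, 285 and 303 CPM in DE, 114 and 116 CPM in AFE, and 301 and 308 CPM in LPO, so DE and LPO overlapped. In DE against PSC, 2 of the 5 were higher and 1 was lower, and in LPO against AFE, 4 were higher and 0 lower.

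Ribosome biogenesis genes were most abundant in PSC and least abundant in LPO. Together they held 1.28% and 1.30% of all counts in PSC, 0.613% and 0.672% in DE, 0.687% and 0.693% in AFE, and 0.398% and 0.394% in LPO. In summed CPM they stood at 13360 and 13859 in PSC, 6623 and 7264 in DE, 7573 and 7700 in AFE, and 3135 and 3121 in LPO. The sum thus dropped at the first step, moved little at the second, and dropped again at the third. By mean level, 57 of the 73 genes (78.1%) were highest in PSC, against 26.5% of all tested genes, and 4 were highest in DE, 8 in AFE and 4 in LPO. For 62 of the 73 the lowest stage was LPO, which was the lowest stage of 5487 of the 19346 genes tested. Among the 4 stages, 68 of 73 differed, against 79.2% of all tested genes (F test). The median length-scaled level over the genes was 24.4 FPKM in PSC, 17.3 FPKM in DE, 14.9 FPKM in AFE and 9.28 FPKM in LPO, so that the median was lower in AFE than in DE while the summed CPM was higher.

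**Figure D1:**
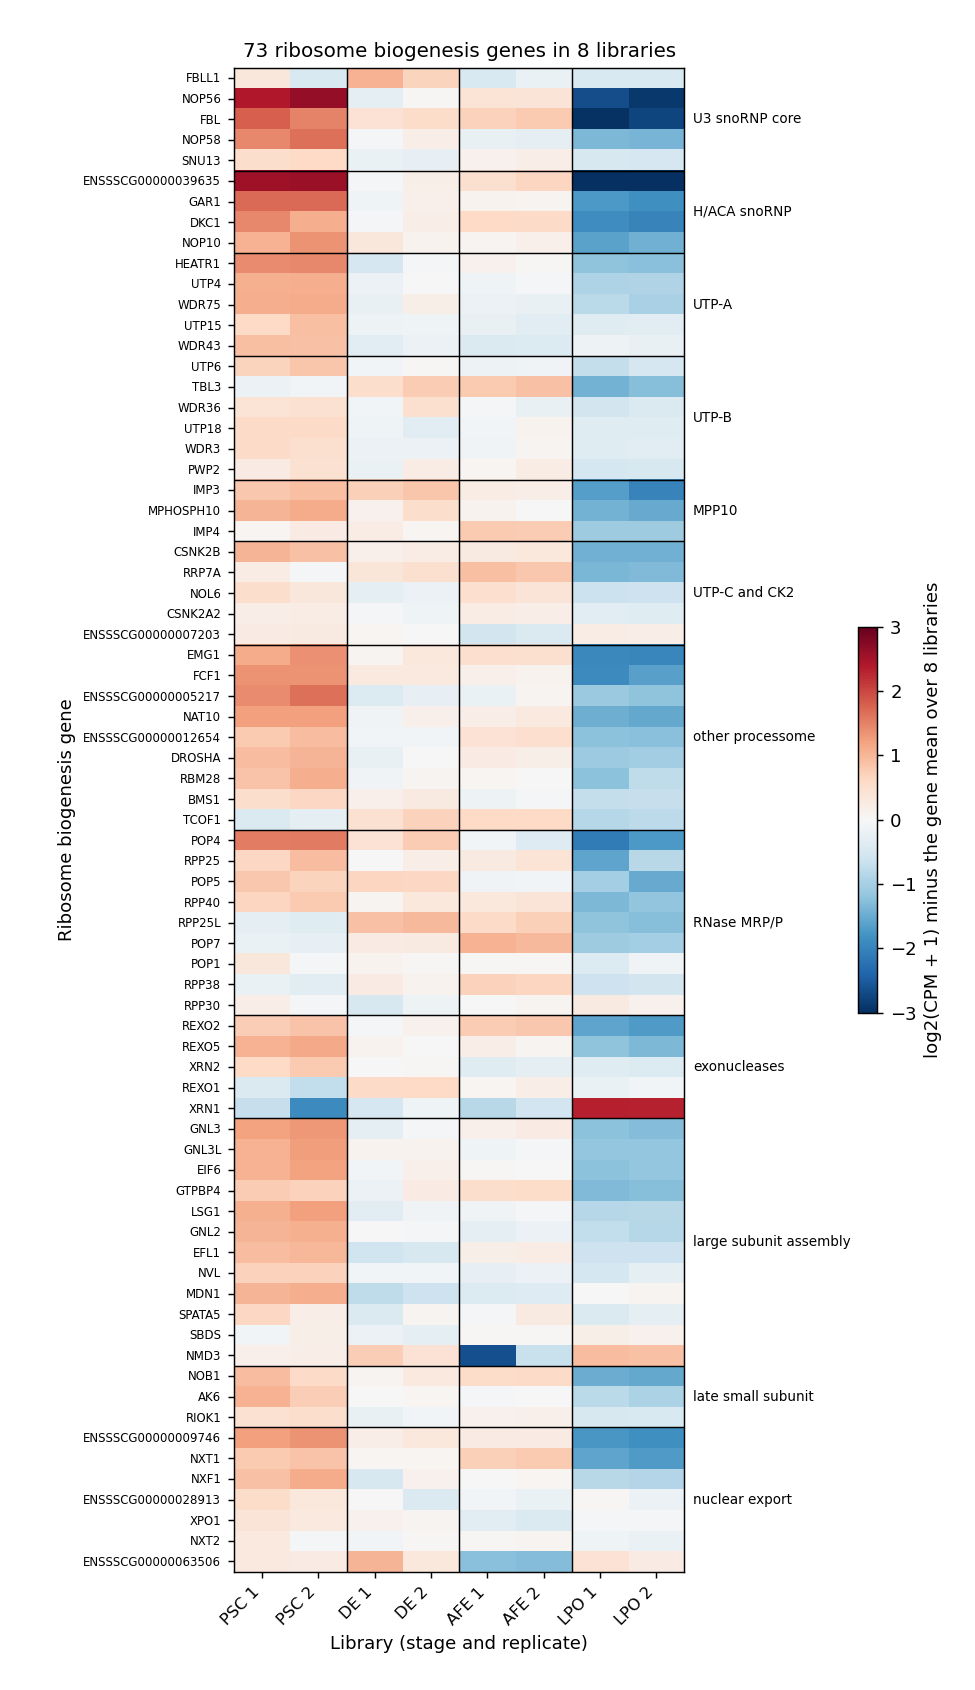
Level of each of the 73 ribosome biogenesis genes (rows, grouped by role and ordered within a role by change between LPO and PSC) in each of the 8 libraries (columns), as log2(CPM + 1) minus the gene's mean over the libraries, with red above and blue below that mean. The PSC columns are red for most rows and the LPO columns blue, and the exonuclease XRN1 shows the opposite pattern at 45.3 and 44.3 CPM in LPO.

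In DE against PSC, 52 of the 73 genes fell (71.2%), against 23.0% of all tested genes, and 7 rose (9.59%), against 30.8%. Falls of 2-fold or more were called in 27 genes, against 11.6% of all genes, and rises of that size in 2, against 22.8%. The median log2 change was −0.78, where that of all tested genes was 0.08. The largest falls among genes with a symbol were in NOP56 (6.28-fold lower), the assembly ATPase MDN1 (3.42-fold lower), GAR1 (3.28-fold lower), HEATR1 (3.26-fold lower) and the GTPase EFL1 (2.89-fold lower). The largest rises were in RPP25L (2.43-fold higher), REXO1 (2.26-fold higher), TCOF1 (1.91-fold higher), TBL3 (1.72-fold higher) and POP7 (1.40-fold higher). When each library was left out in turn, 48 of the 52 falls and 6 of the 7 rises held every time. The fall of ENSSSCG00000007203 ended without DE replicate 2, that of XPO1 without PSC replicate 1 or any DE or AFE library, that of RPP30 without PSC replicate 1, DE replicate 1 or any AFE library, and that of SBDS without any library but PSC replicate 1 (log2 changes −0.40 to −0.16 in those fits). The rise of RRP7A ended without any library but PSC replicate 1 (0.19 to 0.40). With median centring in place of TMM, 59 genes fell and 4 rose.

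In AFE against DE the genes moved both ways. In AFE 20 were higher (27.4%), against 17.9% of all tested genes, and 12 were lower (16.4%), against 17.4%, so the share that fell was near that of all genes. The other 41 were not called, and the median log2 change was 0.11, against 0 for all tested genes. No rise reached 2-fold, against 9.26% of all genes, and 2 falls did, against 8.35%: ENSSSCG00000063506 (8.500-fold lower) and NMD3 (4.33-fold lower), both under 5 FPKM at either stage. The largest rises were in POP7 (1.70-fold higher), EFL1 (1.68-fold higher), REXO2 (1.68-fold higher), NXT1 (1.63-fold higher) and NOL6 (1.62-fold higher), and each held whichever library was left out. Among genes with a symbol and at least 5 FPKM in the higher stage, the largest falls were in POP4, POP5, IMP3, XPO1 and REXO1 (1.85-fold lower, 1.70-fold lower, 1.49-fold lower, 1.41-fold lower and 1.37-fold lower, in that order). Among these 5 falls, that of XPO1 held whichever library was left out and those of the others ended without 1 or more libraries. The count of genes higher in AFE was 12 without DE replicate 1, 10 without AFE replicate 1 and 11 without AFE replicate 2, and the count lower in AFE was 5 without DE replicate 2, 6 without AFE replicate 1 and 4 without AFE replicate 2. Rises that held in every such fit numbered 10 of 20, and falls 3 of 12. The 10 rises that did not hold, among them NOP56, DKC1, GNL3 and GTPBP4, had log2 changes of 0.28 to 0.52 with all libraries and 0.22 to 0.53 in the fits that lost the call. The 9 falls had −2.11 to −0.29 with all libraries and −2.27 to −0.23 in those fits.

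In LPO against AFE, 54 genes fell (74.0%), against 29.6% of all tested genes, and 7 rose (9.59%), against 30.2%. Falls of 2-fold or more numbered 39, against 20.6% of all genes, and rises of that size 3, against 22.7%. The median log2 change was −1.14 (−1.11 with a gene at 0 in LPO taken at its bound), against 0.09 (0.02) for all tested genes. The largest falls among genes with a symbol were in FBL (12.4-fold lower), NOP56 (9.18-fold lower), DKC1 (5.84-fold lower), REXO2 (5.64-fold lower) and NXT1 (5.57-fold lower), and ENSSSCG00000039635, which has none, was 15.7-fold lower. The genes that rose were XRN1 (9.68-fold higher), MDN1 (1.36-fold higher), XPO1 (1.24-fold higher), WDR43 (1.17-fold higher), NMD3 (5.44-fold higher), the messenger RNA export gene ENSSSCG00000063506 (6.21-fold higher) and ENSSSCG00000007203 (1.63-fold higher). The rise of WDR43 ended without any AFE or LPO library and that of XPO1 without AFE replicate 2 or any LPO library (log2 change 0.18 to 0.29). The falls of WDR3 and UTP18 ended without AFE replicate 2 or any LPO library, and that of PWP2 without AFE replicate 2 (−0.58 to −0.25). With median centring the rises of WDR43 (0.10) and XPO1 (0.18) were no longer called. Scaling touched this comparison, as TMM factors were 1.27 and 1.26 in LPO and 0.907 and 0.901 in AFE. With scaling to total counts the median change of all genes moved to 0.58 and that of the 73 genes to −0.65, so that the distance between the medians was −1.23 in both cases. That scaling gave 44 falls and 12 rises, or 21.4% of calls higher against 11.5% with TMM, and ended the falls of RIOK1, CSNK2A2, WDR3, BMS1, WDR75, UTP18, UTP6, NXF1, PWP2 and GNL2 (log2 change −0.43 to 0.14).

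Over the whole course, 62 of the 73 genes were lower in LPO than in PSC (84.9%), against 28.8% of all tested genes, and 2 were higher (2.74%), against 41.5%. Falls of 2-fold or more numbered 50, against 22.0% of all genes, and rises of that size 1, against 34.4%. The median log2 change was −1.86 (−1.85 with the gene at 0 taken at its bound), against 0.49 (0.20) for all tested genes. NOP56 (40.2-fold lower), FBL (23.2-fold lower), POP4 (13.9-fold lower), GAR1 (12.7-fold lower) and DKC1 (9.44-fold lower) fell most among genes with a symbol. The genes that rose were both exonucleases, XRN1 (14.5-fold higher) and REXO1 (1.36-fold higher). The rise of REXO1 ended without LPO replicate 2 (log2 change 0.33) and turned to −0.04 with median centring. The falls of SPATA5 and RPP38 ended without PSC replicate 1 (log2 change −0.63 and −0.27) and without LPO replicate 1 (−0.85 and −0.34). With scaling to total counts 57 genes fell and 5 rose. The falls of CSNK2A2, SPATA5, TCOF1, RPP38 and XPO1 were then not called (log2 change −0.47 to 0.09), and the median of the 73 minus that of all genes was −2.34 on the log2 scale, as it was with TMM and with median centring. The comparisons share libraries with one another (DE with the first and second step, for example) and are not independent.

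**Figure D2:**
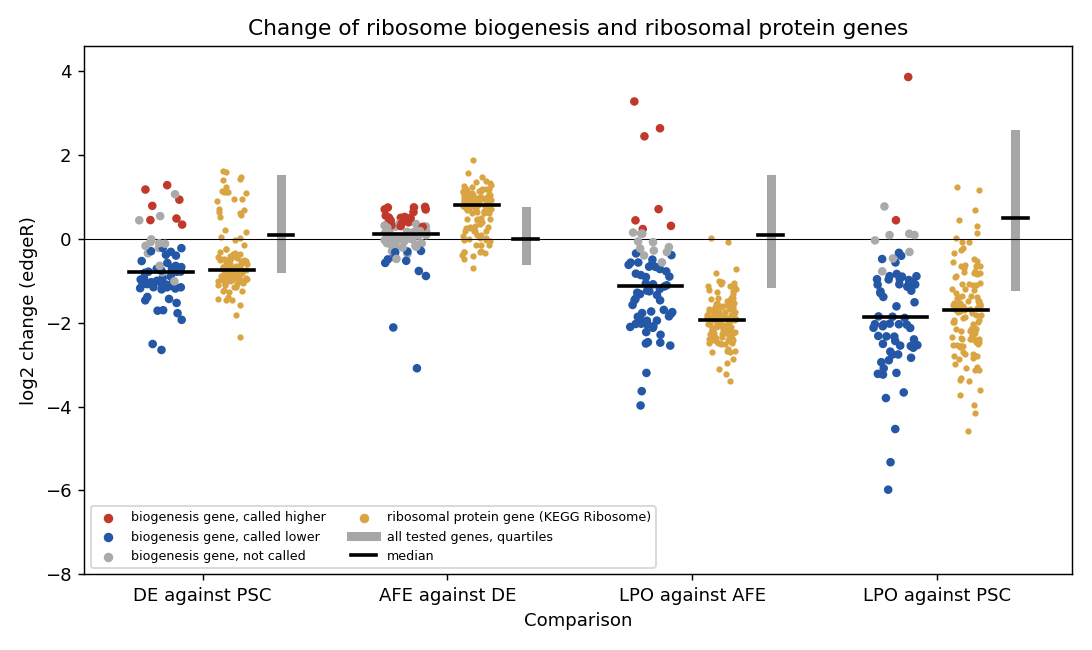
Log2 change of 72 ribosome biogenesis genes (left points of each group, red called higher, blue called lower, grey not called) and 125 genes with the KEGG entry for the ribosome, mitochondrial ribosomal proteins included (yellow points), in 4 comparisons, with the quartiles of all tested genes as a grey bar and medians as black lines. FBLL1, at 0 in both LPO libraries, is left out, and the medians of −0.78, 0.11, −1.14 and −1.86 are over all 73. The blue points outnumber the red in every comparison but AFE against DE.

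By role, the counts below stand against the shares of all tested genes given for each comparison above. Among the box C/D proteins, 4 of 5 fell in DE and 4 of 5 in LPO, with log2 changes in LPO against PSC that ran from −5.33 to −1.05. FBL (fibrillarin, the methyltransferase of box C/D particles) was at 931 and 753 CPM in PSC, 362 and 393 in DE, 436 and 464 in AFE, and 33.8 and 38.7 in LPO. Its level in LPO lay far under that of every other stage. FBL fell in DE against PSC (log2 change −1.16 with SE 0.114, adjusted p = 7.20e-05) and again in LPO against AFE (log2 change −3.63 with SE 0.125, adjusted p = 3.92e-07). NOP56, a scaffold of the same particle, was at 1344 and 1573 CPM in PSC, 206 and 258 in DE, 335 and 331 in AFE, and 39.5 and 33.1 in LPO. It had the widest called drop in DE among members with a symbol, and no library of one stage overlapped another stage. NOP56 was 40.2-fold lower in LPO than in PSC (log2 change −5.33 with SE 0.156, adjusted p = 8.15e-08). NOP58, its paralog in the same particle, was at 508 and 586 CPM in PSC, 182 and 214 in DE, 161 and 152 in AFE, and 72.2 and 70.0 in LPO (7.69-fold lower in LPO than in PSC, log2 change −2.94 with SE 0.107, adjusted p = 1.92e-07). SNU13, which binds the kink-turn of the guide RNA and also serves in the spliceosome, was at 325 and 341 CPM in PSC, 197 and 191 in DE, 248 and 261 in AFE, and 161 and 159.6 in LPO. Its stages did not overlap either, and it was 2.08-fold lower in LPO than in PSC (log2 change −1.05 with SE 0.0624, adjusted p = 2.05e-06). In length-scaled levels SNU13 was the highest member of the set in LPO at 138 FPKM, where NOP56 stood at 20.7 FPKM and FBL at 9.28 FPKM. In PSC the order was different, with NOP56 at 625 FPKM, SNU13 at 216 FPKM and FBL at 162 FPKM.

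FBLL1, a fibrillarin-like gene, was above the floor in both DE libraries and 1 PSC library. Its counts were 30 and 0 in PSC, 106 and 69 in DE, 0 and 12 in AFE, and 0 and 0 in LPO, where 12 counts, or 3 read pairs at that rate, mark the floor. No fold is given for LPO, since AFE lay at or under that floor, and its test among the stages was not called (adjusted p = 0.0655).

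All 4 H/ACA proteins in the set fell in DE and again in LPO, each by 2-fold or more. DKC1 (dyskerin, the pseudouridine synthase) was at 402 and 315 CPM in PSC, 145 and 169.8 in DE, 225 and 219 in AFE, and 39.6 and 36.3 in LPO, and fell in LPO against PSC (log2 change −3.24 with SE 0.137, adjusted p = 3.67e-07). GAR1, which loads substrate RNA, was at 85.6 and 85.8 CPM in PSC, 23.5 and 28.7 in DE, 27.7 and 27.3 in AFE, and 7.08 and 6.43 in LPO. In both genes the PSC libraries lay above and the LPO libraries below all others. NOP10, a small core protein, was at 42.7 and 52.9 CPM in PSC, 25.9 and 21.8 in DE, 21.7 and 22.6 in AFE, and 5.97 and 6.86 in LPO (7.45-fold lower in LPO than in PSC, log2 change −2.90 with SE 0.160, adjusted p = 1.41e-06). The fourth member has no symbol in the table. ENSSSCG00000039635 is annotated there to the box H/ACA snoRNP, and is described because no called change in the set was wider, a choice made after its values were seen. It was at 378 and 393 CPM in PSC, 63.1 and 72.3 in DE, 90.8 and 101 in AFE, and 6.20 and 5.98 in LPO, and was 63.3-fold lower in LPO than in PSC (log2 change −5.98 with SE 0.112, adjusted p = 3.32e-08). Genes on the other strand overlap DKC1 (F8, with 26.7% as many counts), ENSSSCG00000039635 (RMND5B, 21.8%) and NOP56 (IDH3B, 29.3%), and since no label or header states how strand was handled in the counting, these values are uncertain to that extent.

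**Figure D3:**
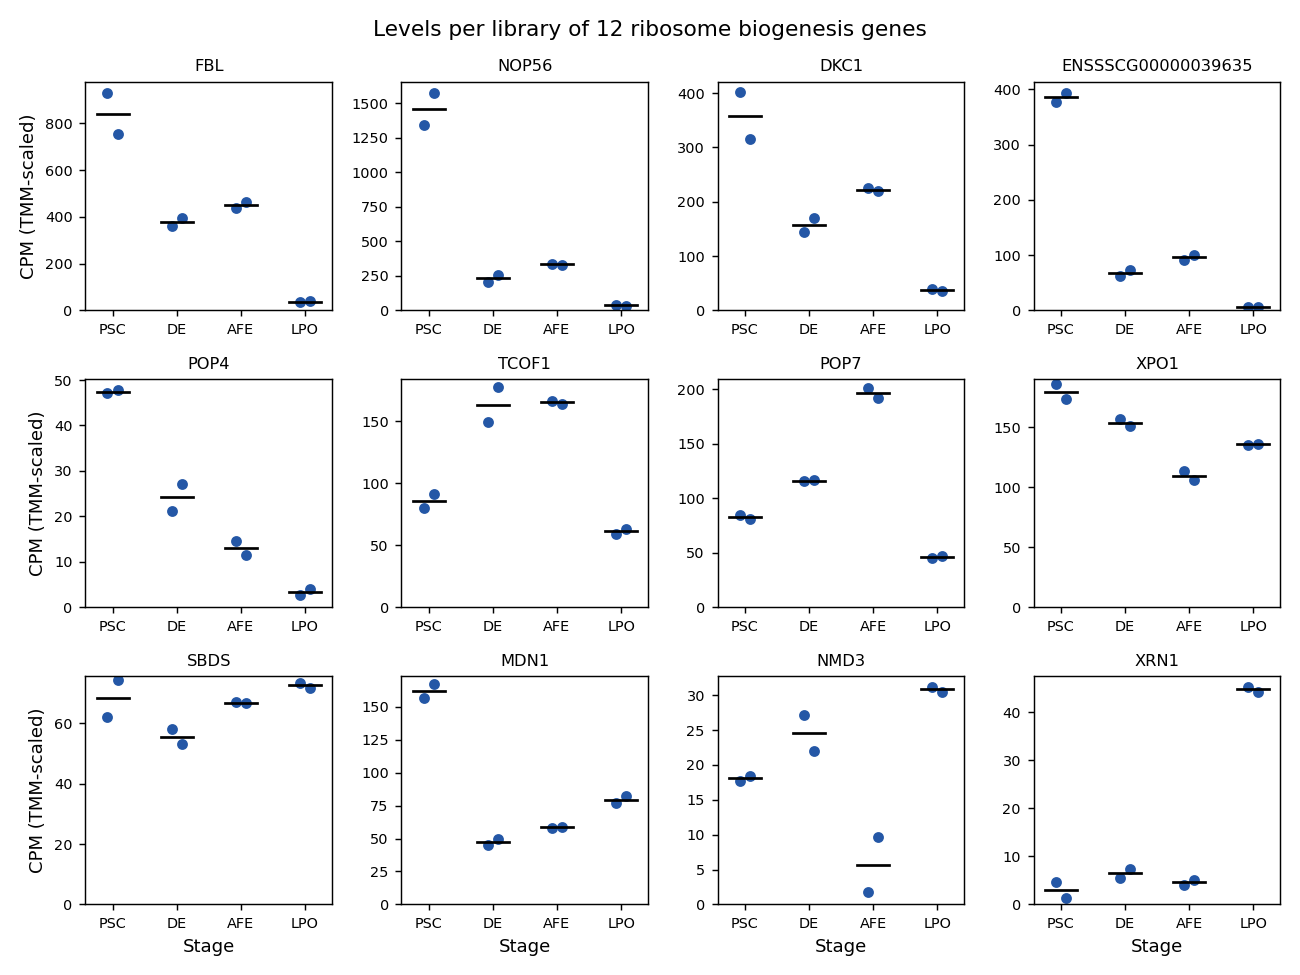
CPM in each library (points) and stage means (lines) for 12 ribosome biogenesis genes, each on its own linear axis from 0, with the stages in order from PSC to LPO. FBL, NOP56, DKC1, ENSSSCG00000039635 and POP4 are highest in PSC and lowest in LPO, POP7 peaks in AFE at 201 and 192 CPM, and XRN1 and NMD3 are highest in LPO.

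The small-subunit processome is built from sub-complexes. UTP-A binds the first part of the transcript and in human cells is also tied to its transcription. All 5 UTP-A genes fell in DE and were lower in LPO than in PSC by 2-fold or more, with a median log2 change of −2.04. HEATR1, its largest protein, was at 224 and 229 CPM in PSC, 58.3 and 80.7 in DE, 91.9 and 85.6 in AFE, and 35.8 and 34.3 in LPO (log2 change −2.69 with SE 0.148, adjusted p = 1.39e-06 for LPO against PSC). A gene on the other strand, LGALS8, overlaps HEATR1 with 50.8% as many counts. UTP4 was at 92.4 and 93.1 CPM in PSC, 38.5 and 43.4 in DE, 39.7 and 42.3 in AFE, and 22.5 and 22.5 in LPO. WDR43 was at 113 and 112 CPM in PSC, 47.7 and 53.5 in DE, 44.7 and 45.4 in AFE, and 54.2 and 51.6 in LPO, and so lay lower in every later stage than in PSC, with LPO above AFE. UTP15 and WDR75, named to complete the complex, were 2.21-fold lower and 4.10-fold lower in LPO than in PSC.

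UTP-B, which follows UTP-A onto the transcript, had the smallest median of the processome modules, with a log2 change of −0.97 in LPO against PSC. All 6 of its genes were lower in LPO than in PSC, 2 of them by 2-fold or more. PWP2, a WD-repeat scaffold of UTP-B, was at 40.1 and 46.6 CPM in PSC, 28.9 and 39.2 in DE, 34.9 and 39.4 in AFE, and 23.0 and 23.7 in LPO (log2 change −0.89 with SE 0.159, adjusted p = 0.00136 for LPO against PSC). WDR3 was at 63.5 and 59.2 CPM in PSC, 37.4 and 37.2 in DE, 39.0 and 44.7 in AFE, and 32.3 and 33.4 in LPO, with its PSC libraries above all others (log2 change −0.90 with SE 0.0981, adjusted p = 7.36e-05 for LPO against PSC). TBL3, another WD-repeat member, took its own course at 69.5 and 74.99 CPM in PSC, 114 and 135 in DE, 136 and 147 in AFE, and 28.8 and 31.7 in LPO. DE and AFE lay above PSC and LPO lay below it, so TBL3 rose in DE (log2 change 0.79 with SE 0.106, adjusted p = 0.000417) and fell in LPO against AFE (log2 change −2.23 with SE 0.109, adjusted p = 1.40e-06).

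The MPP10 complex, which chaperones the pairing of a guide RNA with the transcript in human and yeast, is represented by 3 proteins. MPHOSPH10 was at 107 and 115 CPM in PSC, 57.4 and 76.5 in DE, 56.5 and 52.9 in AFE, and 18.8 and 17.8 in LPO. MPHOSPH10 fell in DE against PSC (log2 change −0.73 with SE 0.134, adjusted p = 0.0023), where its partners IMP3 and IMP4 did not pass the test. IMP3 was at 91.3 and 97.1 CPM in PSC, 86.0 and 92.1 in DE, 60.4 and 59.2 in AFE, and 15.6 and 12.2 in LPO, with overlapping libraries in DE and PSC (log2 change −0.08 with SE 0.119, adjusted p = 0.61). IMP4 was at 108 and 122 CPM in PSC, 119.8 and 108 in DE, 178 and 177 in AFE, and 48.7 and 49.0 in LPO, and peaked in AFE. All 3 fell by 2-fold or more in LPO against AFE and against PSC. IMP3 was 6.77-fold lower in LPO than in PSC (log2 change −2.76 with SE 0.128, adjusted p = 5.74e-07), and IMP4 was 2.36-fold lower in that comparison (log2 change −1.24 with SE 0.0882, adjusted p = 5.91e-06).

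The UTP-C module works with casein kinase 2, and 4 of the 5 genes were lower in LPO than in PSC. The regulatory subunit CSNK2B was at 466 and 424 CPM in PSC, 258 and 271 in DE, 279 and 289 in AFE, and 84.0 and 84.8 in LPO, and was 5.27-fold lower in LPO than in PSC (log2 change −2.40 with SE 0.0709, adjusted p = 8.52e-08). The catalytic subunit CSNK2A2 was at 147 and 149 CPM in PSC, 123 and 116 in DE, 149.9 and 148 in AFE, and 102 and 98.7 in LPO, a narrower range (1.48-fold lower in LPO than in PSC, log2 change −0.56 with SE 0.0652, adjusted p = 0.000107), and with scaling to total counts the change was −0.14 and not called. ENSSSCG00000007203, which shares its orthology entry with CSNK2A2 and was picked out after its values were seen, was at 195 and 198 CPM in PSC, 173 and 164 in DE, 113 and 121 in AFE, and 193 and 189.9 in LPO. It did not pass the test in LPO against PSC (log2 change −0.04 with SE 0.0661, adjusted p = 0.632), and was the only gene of the module higher in LPO than in AFE. With scaling to total counts the change of ENSSSCG00000007203 in LPO against PSC was 0.38 and called higher. NOL6, a scaffold of UTP-C, was at 83.0 and 72.5 CPM in PSC, 46.8 and 50.5 in DE, 82.2 and 75.9 in AFE, and 36.3 and 37.03 in LPO, with overlapping AFE and PSC libraries (log2 change 0.70 with SE 0.0968, adjusted p = 0.0011 for AFE against DE).

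The remaining genes grouped here with the processome include the enzymes that modify and cut the small-subunit RNA. The group also takes in DROSHA, known mainly for processing microRNA precursors, and RBM28, a factor of the large subunit. Of these 9 genes 8 fell in DE, and all 9 were lower in LPO than in AFE and than in PSC, so these counts are not of small-subunit factors alone. NAT10, an RNA acetyltransferase, was at 178 and 177 CPM in PSC, 70.0 and 83.8 in DE, 86.1 and 92.7 in AFE, and 26.9 and 25.5 in LPO (6.77-fold lower in LPO than in PSC, log2 change −2.76 with SE 0.105, adjusted p = 2.30e-07). EMG1, a pseudouridine methyltransferase, was at 308 and 364 CPM in PSC, 150.2 and 176 in DE, 201 and 198 in AFE, and 36.4 and 35.6 in LPO (9.32-fold lower in LPO than in PSC, log2 change −3.22 with SE 0.112, adjusted p = 1.50e-07), and LPCAT3 on the other strand overlaps it with 42.6% as many counts. Both enzymes had all PSC libraries above and all LPO libraries below the other stages. BMS1, a GTPase needed for the first cuts, was at 141 and 149.7 CPM in PSC, 107 and 116 in DE, 86.8 and 94.1 in AFE, and 58.9 and 59.6 in LPO (2.45-fold lower in LPO than in PSC, log2 change −1.29 with SE 0.0805, adjusted p = 2.69e-06). TCOF1 (treacle), which links RNA polymerase I transcription to RNA modification and is mutated in Treacher Collins syndrome, took another course. It was at 80.1 and 90.9 CPM in PSC, 149 and 178 in DE, 166 and 164 in AFE, and 59.3 and 63.1 in LPO, so that DE and AFE lay above PSC. TCOF1 rose in DE (log2 change 0.93 with SE 0.105, adjusted p = 0.000154) and fell in LPO against AFE (log2 change −1.43 with SE 0.106, adjusted p = 1.06e-05). The call of TCOF1 as lower in LPO than in PSC ended with scaling to total counts (log2 change −0.06, against −0.48).

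The 9 protein genes shared by RNase MRP, which cuts the precursor between the subunits, and RNase P, which trims transfer RNA, include 3 that rose in DE (POP7, RPP38, RPP25L; 33.3%, against 30.8% of all tested genes) and 3 that fell (POP4, RPP40, RPP30; 33.3%, against 23.0%). The share that rose was near that of all genes. In LPO against AFE 7 fell (77.8%, against 29.6%) and none rose. POP4 was at 47.1 and 47.9 CPM in PSC, 21.2 and 27.2 in DE, 14.6 and 11.6 in AFE, and 2.83 and 3.99 in LPO, with a lower pair of libraries at every stage, and was 13.9-fold lower in LPO than in PSC (log2 change −3.80 with SE 0.222, adjusted p = 1.93e-06). POP7, which forms a dimer that binds the RNA, was at 84.8 and 81.0 CPM in PSC, 116 and 116 in DE, 201 and 192 in AFE, and 45.7 and 47.1 in LPO. It was highest in AFE and lowest in LPO, and no stages overlapped. POP7 rose in DE (log2 change 0.48 with SE 0.0682, adjusted p = 0.000542) and in AFE against DE (log2 change 0.76 with SE 0.0680, adjusted p = 0.00012), and fell in LPO against AFE (log2 change −2.08 with SE 0.0705, adjusted p = 3.71e-07). With median centring the rises in DE of POP7 (log2 change 0.18) and RPP38 (0.14) were no longer called. RPP25, the usual partner of POP7, was low at 7.17 and 9.15 CPM in PSC, 4.29 and 5.08 in DE, 5.40 and 6.10 in AFE, and 0.786 and 2.00 in LPO, whereas RPP25L, a paralog of RPP25, was at 30.9 and 29.1 CPM in PSC, 70.9 and 74.7 in DE, 56.9 and 62.2 in AFE, and 15.8 and 15.1 in LPO. RPP25L was highest in DE, where it rose (log2 change 1.28 with SE 0.0924, adjusted p = 1.42e-05), and RPP25 was not called at that step (log2 change −0.80 with SE 0.407, adjusted p = 0.135). RPP40 was at 49.1 and 54.0 CPM in PSC, 33.0 and 38.4 in DE, 38.5 and 41.1 in AFE, and 11.5 and 13.03 in LPO (log2 change −2.07 with SE 0.124, adjusted p = 2.15e-06 for LPO against PSC). POP1, the largest protein of both enzymes, was at 11.7 and 8.85 CPM in PSC, 9.74 and 9.23 in DE, 9.27 and 9.25 in AFE, and 6.61 and 8.28 in LPO, and it was called in none of the 4 comparisons (adjusted p = 0.0684 for LPO against PSC).

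The exonucleases held the only 2 genes of the set that were higher in LPO than in PSC. XRN1 degrades messenger RNA in the cytoplasm and is listed in the pathway beside its nuclear relative XRN2. XRN1 was at 4.66 and 1.43 CPM in PSC, 5.500 and 7.39 in DE, 4.13 and 5.12 in AFE, and 45.3 and 44.3 in LPO. Its LPO libraries lay far above all others, and its PSC libraries differed by more than 3-fold. XRN1 rose in LPO against AFE (log2 change 3.28 with SE 0.438, adjusted p = 0.000315) and against PSC (log2 change 3.86 with SE 0.460, adjusted p = 0.000127), where the log2 change was 4.98 without PSC replicate 1 and 3.26 without PSC replicate 2. XRN2, which trims precursor ends in the nucleus, was at 133 and 150.3 CPM in PSC, 86.5 and 88.7 in DE, 67.8 and 72.2 in AFE, and 67.8 and 64.8 in LPO (log2 change −1.09 with SE 0.0858, adjusted p = 1.03e-05 for LPO against PSC). REXO1 was at 54.9 and 44.0 CPM in PSC, 111 and 113 in DE, 77.7 and 85.6 in AFE, and 64.4 and 70.1 in LPO, highest in DE (log2 change 1.17 with SE 0.117, adjusted p = 7.83e-05 for DE against PSC). REXO2, an oligoribonuclease found mainly in mitochondria, was at 91.5 and 100.001 CPM in PSC, 53.6 and 59.8 in DE, 93.4 and 96.8 in AFE, and 17.6 and 16.1 in LPO, with overlapping AFE and PSC libraries and LPO far below (log2 change −2.50 with SE 0.0995, adjusted p = 5.96e-07 for LPO against AFE).

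Large-subunit assembly factors fell in DE in 10 of 12 cases (83.3%, against 23.0% of all tested genes) with none higher, and 10 of 12 were lower in LPO than in PSC (83.3%, against 28.8%). GNL3 (nucleostemin), a nucleolar GTPase abundant in stem cells, was at 308 and 332 CPM in PSC, 109 and 128 in DE, 148 and 158 in AFE, and 56.7 and 53.7 in LPO (5.80-fold lower in LPO than in PSC, log2 change −2.54 with SE 0.0976, adjusted p = 2.39e-07). PBRM1 on the other strand overlaps GNL3 with 21.2% as many counts. GNL2, a GTPase of nuclear particles, was at 244 and 255 CPM in PSC, 119.7 and 117 in DE, 98.9 and 106 in AFE, and 71.9 and 66.4 in LPO (log2 change −1.85 with SE 0.0760, adjusted p = 3.19e-07). GTPBP4, another nucleolar GTPase, was at 425 and 404 CPM in PSC, 222 and 295 in DE, 362 and 365 in AFE, and 99.0 and 103 in LPO (log2 change −2.04 with SE 0.124, adjusted p = 2.35e-06). All 3 GTPases had LPO below every other stage. LSG1, a cytoplasmic GTPase that releases NMD3, was at 131 and 145 CPM in PSC, 48.6 and 57.1 in DE, 56.9 and 59.6 in AFE, and 33.5 and 34.4 in LPO (log2 change −2.02 with SE 0.104, adjusted p = 9.83e-07).

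Of the ATPases, MDN1, the giant ATPase that strips assembly factors from the particle, was at 157 and 167 CPM in PSC, 45.1 and 49.5 in DE, 58.1 and 58.8 in AFE, and 76.6 and 81.9 in LPO. It fell in DE (log2 change −1.77 with SE 0.0837, adjusted p = 1.93e-06) and rose in LPO against AFE (log2 change 0.44 with SE 0.0814, adjusted p = 0.00198), to a level still 2.04-fold lower than in PSC. NVL, an ATPase of the same pathway, was at 147 and 148 CPM in PSC, 84.9 and 85.9 in DE, 76.2 and 80.4 in AFE, and 62.4 and 74.0 in LPO, with most of its fall at the first step (log2 change −0.78 with SE 0.0927, adjusted p = 0.000204). Its change in LPO against AFE was not called (log2 change −0.20 with SE 0.0922, adjusted p = 0.0991), and with scaling to total counts it was 0.29 and called higher.

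EIF6 keeps the immature large subunit from joining the small one, and SBDS with EFL1 removes it. EIF6 was at 437 and 487 CPM in PSC, 201 and 236 in DE, 219 and 215 in AFE, and 89.7 and 94.2 in LPO (5.02-fold lower in LPO than in PSC, log2 change −2.33 with SE 0.0975, adjusted p = 3.49e-07). EFL1 was at 105 and 111 CPM in PSC, 35.6 and 39.1 in DE, 61.7 and 63.9 in AFE, and 35.5 and 35.2 in LPO, lowest in DE and LPO (log2 change −1.53 with SE 0.0843, adjusted p = 3.83e-06 for DE against PSC, log2 change 0.75 with SE 0.0831, adjusted p = 0.000358 for AFE against DE). SBDS, mutated in Shwachman-Diamond syndrome, stayed within a narrow range at 62.1 and 74.5 CPM in PSC, 58.1 and 53.2 in DE, 66.9 and 66.8 in AFE, and 73.5 and 71.8 in LPO. Its LPO and PSC libraries overlapped (log2 change 0.09 with SE 0.102, adjusted p = 0.456), and with median centring the change was −0.40 and called lower. NMD3, the adaptor that couples the large subunit to XPO1, was at 17.7 and 18.4 CPM in PSC, 27.1 and 21.9 in DE, 1.71 and 9.62 in AFE, and 31.2 and 30.4 in LPO. The AFE libraries of NMD3 differed more than 5-fold, and its fall in AFE (log2 change −2.11 with SE 0.609, adjusted p = 0.0301) moved to −1.35 without AFE replicate 1 and −3.84 without AFE replicate 2, and was not called without DE replicate 1 (−1.95) or DE replicate 2 (−2.27). The rise of NMD3 in LPO against AFE (log2 change 2.44 with SE 0.613, adjusted p = 0.00952) was 4.17 without AFE replicate 2, and LPO against PSC was not called (log2 change 0.77 with SE 0.581, adjusted p = 0.264).

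Late steps of the small subunit were covered by 3 genes, all of which fell in DE and in LPO. NOB1, the endonuclease that makes the final cut of the small-subunit RNA, was at 194 and 153 CPM in PSC, 108 and 125 in DE, 151 and 153 in AFE, and 35.4 and 34.3 in LPO (log2 change −2.32 with SE 0.126, adjusted p = 1.33e-06 for LPO against PSC). RIOK1, a kinase of the last cytoplasmic particle, was at 65.4 and 69.0 CPM in PSC, 40.8 and 45.03 in DE, 51.9 and 52.7 in AFE, and 33.7 and 34.3 in LPO (log2 change −0.98 with SE 0.0870, adjusted p = 2.12e-05). AK6 shares its locus with TAF9, which has 163% as many counts on the same strand, so its level is uncertain.

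Of 7 export genes, 4 were lower in LPO than in PSC and none higher. XPO1, the exportin for both subunits and many proteins, was at 186 and 174 CPM in PSC, 157 and 151 in DE, 113 and 106 in AFE, and 136 and 136 in LPO. Its lowest stage was AFE, and it fell there against DE (log2 change −0.49 with SE 0.0707, adjusted p = 0.00134). In LPO against PSC it was called lower (log2 change −0.41 with SE 0.0706, adjusted p = 0.00118), but the change was 0.02 with scaling to total counts. ENSSSCG00000009746, described in the table as the GTPase RAN that drives export, was at 2269 and 2468 CPM in PSC, 1101 and 1206 in DE, 1136 and 1141 in AFE, and 287 and 270.3 in LPO. It was the highest member by FPKM in PSC (629), DE (299) and AFE (285) and the second highest in LPO (98.3), and was 8.500-fold lower in LPO than in PSC (log2 change −3.09 with SE 0.0724, adjusted p = 4.51e-08). NXT1, a cofactor of messenger RNA export, was at 65.1 and 67.9 CPM in PSC, 38.8 and 38.5 in DE, 61.5 and 64.3 in AFE, and 11.8 and 10.8 in LPO (log2 change −2.56 with SE 0.0926, adjusted p = 1.86e-07). NXF1, its receptor partner, was at 115 and 134 CPM in PSC, 44.3 and 67.2 in DE, 62.1 and 64.5 in AFE, and 34.1 and 33.2 in LPO (log2 change −1.89 with SE 0.184, adjusted p = 3.79e-05), and overlaps TMEM223 on the same strand, which has 155% as many counts.

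**Figure D4:**
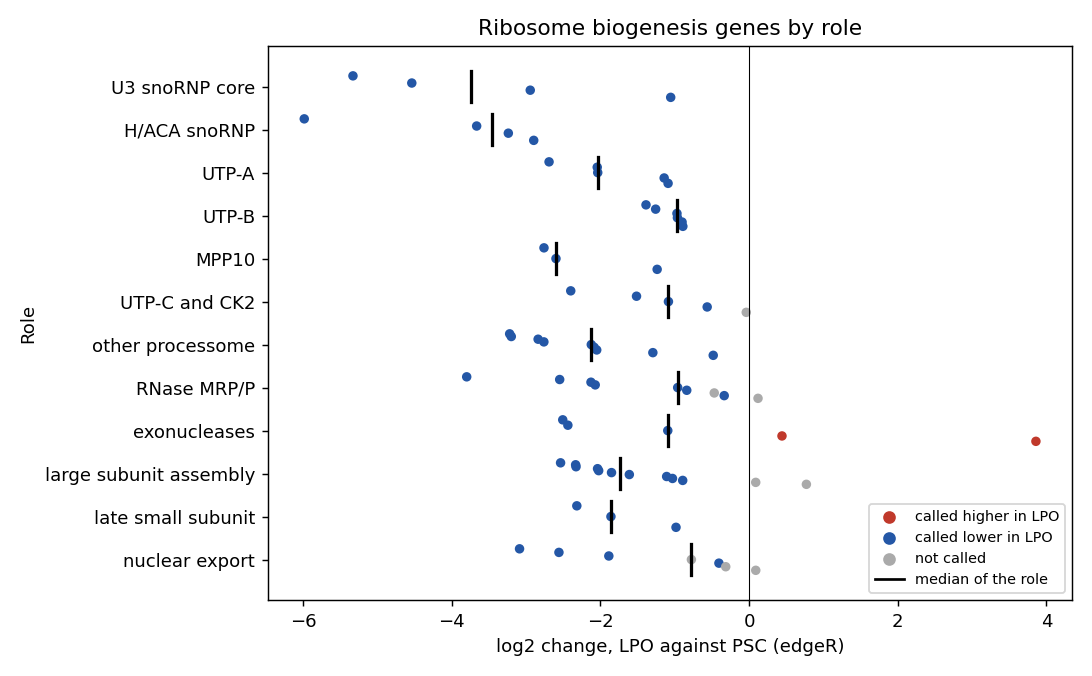
Log2 change of each ribosome biogenesis gene in LPO against PSC (horizontal axis, edgeR), by role (rows), with blue points called lower, red called higher and grey not called, and a black line at the median of the role. FBLL1 is left out. The H/ACA genes lie between −5.98 and −2.90, the UTP-B genes between −1.39 and −0.89, and the exonucleases hold both red points, at 0.44 and 3.86.

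Most of the listed factors of ribosome assembly outside the 73 genes were also lower in LPO than in PSC. The lists were chosen with earlier results of these data known, so they are not an independent check. The share of all tested genes called higher and lower was 30.8% and 23.0% in DE against PSC, 17.9% and 17.4% in AFE against DE, 30.2% and 29.6% in LPO against AFE, and 41.5% and 28.8% in LPO against PSC. Of 19 genes of the RNA polymerase I machinery, 2 were higher and 14 lower in DE than in PSC, 7 higher and 4 lower in AFE than in DE, none higher and 16 lower in LPO than in AFE, and 2 higher and 16 lower in LPO than in PSC. UBTF, the factor that opens ribosomal DNA, was at 238 and 229 CPM in PSC, 127 and 158 in DE, 98.2 and 104 in AFE, and 47.8 and 47.3 in LPO. TAF1D, a subunit of the promoter selectivity factor, was at 128 and 131 CPM in PSC, 153 and 149 in DE, 267 and 255 in AFE, and 271 and 255 in LPO. Of 54 other nucleolar and large-subunit factors, 6 were higher and 40 lower in DE, 9 higher and 7 lower in AFE, 1 higher and 47 lower in LPO than in AFE, and none higher and 51 lower in LPO than in PSC (median −2.38). NCL (nucleolin) was at 2329 and 2231 CPM in PSC, 933 and 1097 in DE, 1180.2 and 1159 in AFE, and 477 and 482 in LPO, and NPM1 (nucleophosmin), a nucleolar chaperone, at 2634 and 2528 CPM in PSC, 1229 and 1207 in DE, 1655 and 1640.0 in AFE, and 923 and 895 in LPO. EBNA1BP2, a large-subunit factor, had the widest fall in LPO against PSC of these 54 (log2 change −4.77 with SE 0.158, adjusted p = 1.29e-07). A further 9 factors of the same complexes without the pathway entry had 0 genes higher and 8 lower in LPO than in PSC, among them RRP9 of the box C/D particle at 121 and 115 CPM in PSC, 56.2 and 73.2 in DE, 84.5 and 85.4 in AFE, and 17.05 and 17.9 in LPO.

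As ribosomal protein genes, the 125 genes with the KEGG entry for the ribosome were taken, and all were tested. The list is mixed. It holds genes of cytosolic ribosomal proteins, the parts that the machinery assembles. It also holds genes of mitochondrial ribosomal proteins (MRPL and MRPS symbols), which are not such parts, the cytokine gene FLT3LG and the assembly factor RSL24D1. The counts and medians below are over the whole list and do not describe the cytosolic ribosome alone. In DE against PSC the 73 assembly genes had 7 higher and 52 lower with a median log2 change of −0.78, and the 125 ribosomal protein genes had 18 higher and 94 lower with a median of −0.74. In AFE against DE the assembly genes had 20 higher and 12 lower (median 0.11), and the ribosomal protein genes had 92 higher and 7 lower (median 0.80). In LPO against AFE the medians were −1.14 for assembly genes and −1.93 for ribosomal protein genes, of which 121 were lower and none higher. Over the whole course, LPO against PSC, the medians lay close together. The assembly genes had 2 higher and 62 lower (median −1.86), and the ribosomal protein genes had 4 higher and 113 lower (median −1.71). By mean level, 57 assembly genes were highest in PSC and 8 in AFE, whereas 61 ribosomal protein genes were highest in PSC and 64 in AFE. The difference between these groups of genes was not tested.

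MYC, a known activator of ribosome biogenesis genes, was at 102 and 105 CPM in PSC, 25.3 and 18.6 in DE, 8.08 and 10.1 in AFE, and 22.4 and 21.4 in LPO. MYCN was at 112 and 106 CPM in PSC, 75.9 and 56.5 in DE, 139 and 140.2 in AFE, and 10.03 and 9.10 in LPO. MYC was thus lowest in AFE and MYCN in LPO, and both were lower in LPO than in PSC (log2 change −2.24 with SE 0.167, adjusted p = 7.53e-06 for MYC, and log2 change −3.51 with SE 0.149, adjusted p = 3.75e-07 for MYCN). In the list of 9 MYC family genes and partners that they belong to, 6 were higher and 3 lower in LPO than in PSC, with a median log2 change of 1.07. MXI1, an antagonist of MYC, was at 13.1 and 9.95 CPM in PSC, 49.1 and 35.7 in DE, 25.4 and 23.1 in AFE, and 137 and 132 in LPO.

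Markers of dividing cells and of mesenchyme moved between the same stages. The 11 markers of dividing cells summed to 1847 and 1869 CPM in PSC, 1472 and 1495 CPM in DE, 1203 and 1219 CPM in AFE, and 384 and 381 CPM in LPO. In DE against PSC, 5 were higher and 5 lower, with a median log2 change of 0.31, and in AFE against DE, 2 were higher and 7 lower. All 11 were lower in LPO than in AFE and than in PSC. MCM2, a replication helicase subunit and one of those lower in DE, was at 503 and 538 CPM in PSC, 215 and 205 in DE, 301 and 315 in AFE, and 36.9 and 36.8 in LPO, and CDK1, a kinase of cell division, at 89.8 and 77.3 CPM in PSC, 116 and 121 in DE, 59.3 and 61.0 in AFE, and 17.7 and 15.3 in LPO. The 6 mesenchyme markers summed to 9.92 and 9.66 CPM in PSC, 211 and 75.5 CPM in DE, 353 and 360 CPM in AFE, and 8796 and 8942 CPM in LPO, with POSTN and TWIST1 at 0 in PSC. All 6 were higher in LPO than in AFE. The 4 endothelium and blood markers summed to 3.15 and 3.06 CPM in PSC, 88.8 and 51.0 CPM in DE, 13.8 and 13.7 CPM in AFE, and 37.7 and 35.1 CPM in LPO, with the blood marker PTPRC at 0 in DE and AFE. The part of dividing cells, of mesenchyme and of endothelium in the falls at LPO was not tested.

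Some features of the genes were described that the selection rule did not use directly. All 73 are annotated as protein-coding. Of these, 5 (6.85%) hold small nucleolar RNA genes within their span on the same strand, against 0.696% of 17948 protein-coding genes: NOP56 holds 5, NOP58 4, GNL3 3, WDR43 3 and DKC1 1. Such RNAs lack the poly(A) tail by which the libraries were selected, per the labels' protocols. Annotation to the nucleolus covers 50 of the 73 (68.5%), against 3.69% of protein-coding genes. It is close in meaning to the pathway entry by which the genes were picked, so it is not independent of the selection. The KEGG entry for RNA transport is carried by 17 of 73 (23.3%), against 0.858% of protein-coding genes. The genes are spread over 18 chromosomes. NOP56 lies on chromosome 17 (32960102 to 32965370), FBL on chromosome 6 (48314783 to 48326436), DKC1 on chromosome X (125218923 to 125229525) and XRN1 on chromosome 13 (83065957 to 83174477), in the coordinates of the deposited table. Its genome build is not given in the labels or file headers.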

How the data were processed

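RNA was purified with oligo(dT) and made into libraries at 4 stages of pig cells, 2 libraries each. The tools named in the submitters' processing notes are HISAT2 2.2.1, StringTie 2.1.6, cutadapt 1.9, edgeR and DESeq2. The genome build and the strand setting of the counting are not given in the sources used here, so genes that overlap another gene or have a near-identical copy are uncertain. The authors deposited estimated counts and FPKM values per gene. Columns were matched to libraries by name, with EPSC read as the pluripotent stem cells and Organoid as the lung progenitor organoids. All deposited counts were whole numbers, and rounding changed none. Of counts from 1 to 12, 46.4% to 50.7% per library were multiples of 4, and 1 read pair was taken as 4 counts on that basis, which no source states.

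In R 4.3.3, genes were filtered with filterByExpr (19346 of 25578 kept), scaled with TMM and fitted over all 8 libraries with edgeR 4.0.16 (glmQLFit, glmQLFTest, default prior count, 4 residual degrees of freedom). A prior count of 2 served only for the log2 CPM used in median centring and in the comparison of same-numbered libraries. P-values were adjusted with the Benjamini-Hochberg method over all tested genes, and the standard error (SE) of a log2 change is its size divided by the square root of F. The edgeR fit was tested on simulated counts with a fixed spread, for DE against PSC only. The other comparisons and the alternatives were not simulated. The simulated counts had the same spread for all genes and no surplus of multiples of 4. They cannot give the error rate of the fit to the real counts. Total counts of 36004372 to 67566269 per library set the counting error, and a floor of 3 read pairs (12 counts) equals 0.150 to 0.357 CPM. Floors cover counting error only.

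Named genes were a panel of known assembly factors, the 5 largest rises and falls per comparison among called genes with a symbol, at least 5 FPKM in the higher stage and no overlap between groups, and genes at 0 in both libraries of a stage. Of the panel, RRP9, CSNK2A1, NHP2, RIOK2 and PNO1 matched no symbol in the set, and RAN was matched by its description. RRP9 is in the deposited table without the pathway entry. Whether members without a symbol, such as ENSSSCG00000039635 and ENSSSCG00000007203, are among the others was not settled, so these factors may be present under an identifier. The members, roles and lists were chosen with earlier results of these data known. Genes named from outside this rule were chosen after their values were seen. Same-numbered libraries did not deviate together (r = −0.0136 to 0.00782 over 19346 genes), so numbers were not used as pairs. Alternatives were DESeq2 1.42.0 (size factors and Wald test), median centring, total count scaling, no filter, limma 3.58.1 on log2(FPKM + 1) and log2(FPKM + 0.1) for genes of at least 1 FPKM (72 of the 73), counts divided by 4, a replicate block, each library left out, and fits to the 4 libraries compared. Figures were drawn with matplotlib 3.10.9 in Python 3.11.15.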

Additional observations from a re-analysis of the deposited data

How the results depend on the processing

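Of 216 calls over the 4 comparisons, 172 held under every alternative, 44 were lost under at least 1, and 32 of these with a single library left out. The counts of genes lower in DE (52), lower in LPO against AFE (54) and lower in LPO against PSC (62) stayed within 1.5 times of these values in all alternatives. The count higher in DE was 4 with median centring, against 7. The counts in AFE against DE ranged with 1 library left out between 10 and 23 higher, against 20, and between 4 and 14 lower, against 12. The count higher in LPO against AFE was 12 with total count scaling and with limma at either pseudocount, against 7. The count higher in LPO against PSC was 1 with median centring, 5 with total count scaling, 6 with limma on log2(FPKM + 1), 5 with limma on log2(FPKM + 0.1) and 1 to 3 with 1 library left out, against 2. With the replicate number as a block, 6 rose and 51 fell in DE, 18 rose and 11 fell in AFE, 6 rose and 54 fell in LPO against AFE, and 2 rose and 62 fell in LPO against PSC, and same-numbered libraries did not deviate together.

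Signs turned in few genes. With total count scaling, limma on log2(FPKM + 1) and limma on log2(FPKM + 0.1), in that order, the log2 change in LPO against AFE was 0.14, 0.13 and 0.15 for WDR3, 0.41, 0.39 and 0.41 for XRN2, 0.42, 0.34 and 0.42 for UTP15, 0.10, 0.10 and 0.11 for UTP18, and 0.29, 0.26 and 0.29 for NVL. In the same order, the change in LPO against PSC was 0.38, 0.36 and 0.37 for ENSSSCG00000007203, 0.087, 0.067 and 0.075 for RPP38, and 0.016, 0.0038 and 0.0039 for XPO1. With median centring it was −0.40 for SBDS, −0.37 for RPP30 and −0.043 for REXO1. Some turned changes were also called. XRN2, UTP15 and NVL were called higher in LPO against AFE, and ENSSSCG00000007203 higher in LPO against PSC, under each of their alternatives. SBDS and RPP30 were called lower with median centring. The turned changes of WDR3, UTP18, RPP38, XPO1 and REXO1 were not called under these alternatives. These alternatives scale LPO differently, as the median of all genes in LPO against PSC was 0.49 with TMM, 0.91 with total count scaling and 0 with median centring. The scaling rests on relative levels, so total RNA per cell was not measured. With 2 libraries a stage the precision is set by the pooled spread, and FBLL1 was at or under the floor in AFE and LPO and in 1 PSC library.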
